A study of Danio rerio with 12 samples.

Results

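Molecular chaperones, their co-chaperones and the heat shock factors were followed across the gonads and bodies of adult zebrafish of both sexes. A gene was taken when its symbol in the array annotation began with hsp, hsf and a number, dnaj, fkbp or cct2 to cct8, or was tcp1, and when the probe set carried that symbol alone. This gave 80 probe sets for 71 genes, out of 15502 probe sets on the array. 9 genes had 2 probe sets each, and the brighter one stands for the gene in every count. The groups were 3 testes, 3 ovaries, 3 male bodies without testes and 3 female bodies without ovaries, each on its own Affymetrix Zebrafish Genome Array. All fish were wild type of the AB strain and untreated, and per the methods they were full siblings 4 to 12 months old that had spawned, had been kept apart from the other sex for 5 days and were killed in an ice bath. Gonad and body samples of like replicate number were taken to come from the same fish, which gives 3 males and 3 females for the 12 arrays. A body sample mixes muscle, liver, gut, brain and every other organ.

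Chaperones bind unfolded or partly folded proteins and hold, fold or hand them on. HSP70 proteins work in cycles set by J proteins (the DNAJ families), which bring substrates and trigger ATP hydrolysis, and by nucleotide exchange factors, which release them. HSP90 acts later on a narrower set of clients, the chaperonin CCT folds actin and tubulin inside a ring, small heat shock proteins hold clients without ATP, and FKBP proteins turn peptide bonds next to proline. Heat shock factors are the transcription factors that switch many of these genes on under stress, and in germ cells several of them have roles apart from stress.

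The values are signals on a linear scale, the brightness of a probe set after the authors scaled each array to a common mean. Signals up to 32 were treated as a floor, and differences are given on a log2 scale with the standard error (SE) from limma and an adjusted p over all probe sets tested. A gene is said to have been higher or lower, or to have risen or fallen, only where its adjusted p was under 0.05. Signals are compared between groups for 1 probe set at a time, never between genes. Arrays of a group correlated at 0.923 to 0.983 over all probe sets. The share of probe sets at the floor was 14.1 to 17.9% in testis, 33.0 to 35.7% in ovary, 10.4 to 11.8% in the male body arrays and 12.3 to 18.3% in the female ones.

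Marker genes were read first. All 8 measured testis germ cell markers were above the floor in testis. They summed to 49685 to 50251 there, against 1285 to 1708 in ovary and 415 to 445 in male body. Of the 8, 7 were higher in testis than in ovary and 1, spata18, was lower. It had 407, 309 and 294 in testis, against 780, 1270 and 1239 in ovary. The 10 measured oocyte markers summed to 97068 to 108490 in ovary and to 281 to 655 in male body. In female body they summed to 81695, 54878 and 37860 on arrays 1, 2 and 3, which is 78.7%, 52.9% and 36.5% of the ovary mean, and each of the 10, zona pellucida genes and others alike, was above the floor on all 3 female body arrays. Where these signals came from was not tested. The 11 measured skeletal muscle markers summed to 1709 to 1872 in testis and 356 to 440 in ovary, against 215060 to 294392 in male body and 114433, 167624 and 232076 in female body. The 9 measured pancreas and gut markers summed to 16879, 6988 and 6465 in testis and 256 to 730 in ovary. In male body they summed to 52689 to 64075 and in female body to 50187 to 72083. Every comparison with female body, and of testis with ovary, is read beside these sums. Their part in the differences was not tested. In such samples, fewer cells of a type and less RNA per cell cannot be told apart.

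Testis and ovary differed at most of the chaperone genes. In testis 34 of the 71 genes were higher than in ovary and 21 were lower, while 16 passed in neither direction. Over all probe sets tested 42.5% were higher in testis and 24.4% were lower, beside 47.9% and 29.6% of the chaperone genes. The median log2 difference was 0.55 over the chaperone genes and 0.36 over all probe sets. These counts hang on how arrays are scaled: with arrays brought to a common median the all-gene median was -0.15 and 19 chaperone genes were higher and 27 lower, and with quantile normalization it was -0.04 with 32 higher and 22 lower.

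In the authors' scaling, chaperone genes were called higher in testis than in male body more often than all probe sets were. For ovary and female body that was not so in this scaling. In testis 32 genes were higher than in male body and 10 were lower, where all probe sets gave 29.2% higher and 29.9% lower and the chaperone genes 45.1% and 14.1%. In ovary 19 of 69 genes tested were higher than in female body and 17 were lower, which is 27.5% and 24.6%, beside 28.2% and 29.5% of all probe sets. With arrays at a common median the ovary counts became 38 higher and 9 lower, and with quantile normalization 26 and 12. The all-gene median in that comparison was -0.05, 0.52 with arrays at a common median and 0.31 after quantile normalization. The chaperone median was 0.18, 0.88 and 0.40 in the same order, above the all-gene median each time. Shares of all probe sets are given in the authors' scaling only. Leaving out ovary array 1 or ovary array 3 left 11 genes lower, and leaving out female body array 1, which had the highest oocyte marker sum, left 20 higher and 21 lower.

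Male and female bodies differed at 17 chaperone genes. Of 70 genes tested, 9 were higher in male body and 8 were lower, which is 12.9% and 11.4%, beside 18.0% and 12.9% of all probe sets. Of the 17 genes 3 passed whichever array was left out, namely hspbp1, dnajb1b and dnajc5ga, all of them lower in male body. Among the female body arrays each of these was highest on array 1 and lowest on array 3, as the oocyte marker sum was (for hspbp1 on its brighter probe set only). The part of the oocyte marker signals in these differences was not tested. Without male body array 3 no gene was higher and 3 were lower, without male body array 1 the counts were 1 and 3, and without female body array 1 they were 5 and 3.

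**Figure D1:**
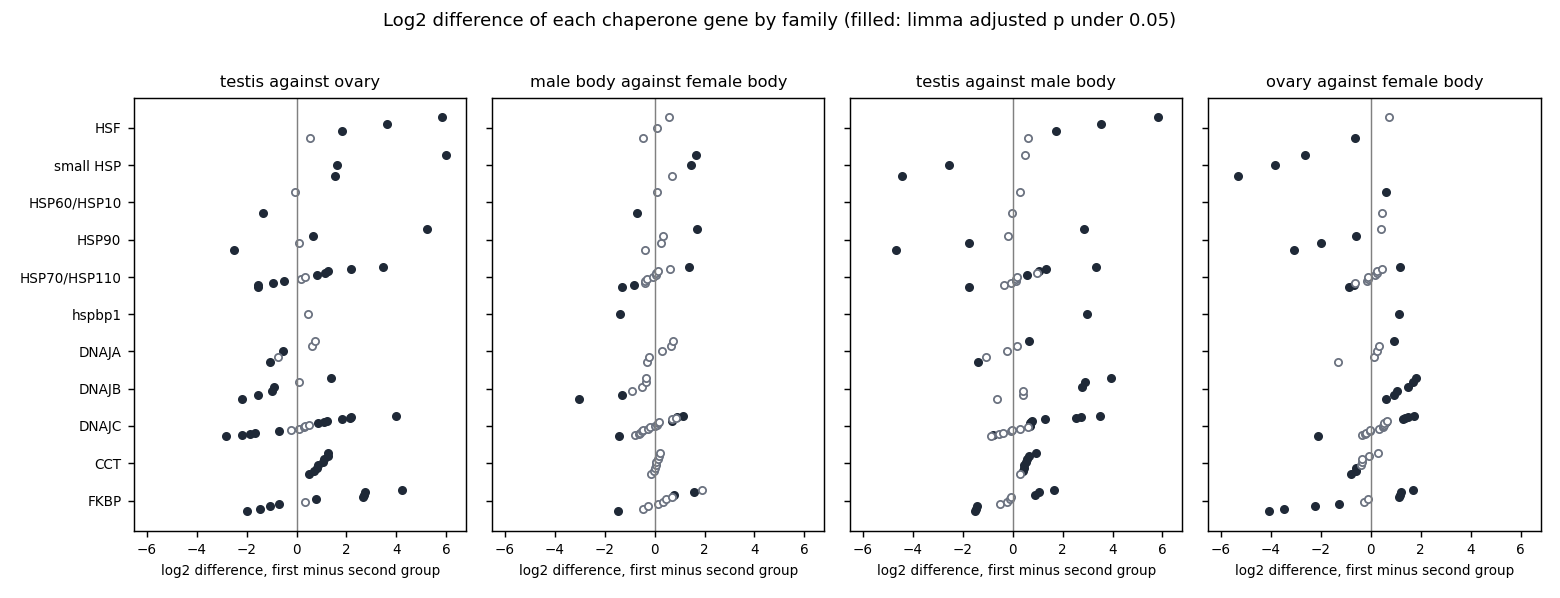
Each point is 1 chaperone gene, placed by its log2 difference (first minus second group named above the panel) and by its family, with filled points for limma adjusted p under 0.05 and open points for the rest. The 8 CCT genes all lie to the right of 0 in testis against ovary (cct3 and tcp1 not with arrays at a common median), the 6 DNAJB genes all lie to the right in ovary against female body, and most points of male body against female body are open.

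Of the genes with hsf symbols, hsf5 and hsf2bp were above the floor on all testis arrays and, for hsf2bp, on 1 other array. hsf2bp has such a symbol but encodes a partner of HSF2, not a heat shock factor. hsf5, a factor that zebrafish need for spermatogenesis, had signals of 1732, 1641 and 2126 in testis and lay at or below the floor on all 9 other arrays. Testis was therefore at least 56.9-fold higher than ovary (adjusted p = 1.4e-06) and at least 56.9-fold higher than male body (adjusted p = 8.9e-07). hsf2bp, whose product binds HSF2 and in mice acts in meiotic recombination, had 409, 304 and 507 in testis, against 19.3, 22.9 and 24.6 in ovary, all under the floor. That is at least 12.4-fold higher in testis (adjusted p = 2.0e-05). In male body it had 38.7, 5.0 and 31.8, so only male body array 1 was above the floor, and testis was higher by at least 3.55 ± 0.26 (log2, SE, with the floor for the other 2 arrays). Neither gene could be tested between ovary and female body because all 6 arrays were at the floor.

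hsf2, another factor of the family, was present in all 4 groups. Its signals were 707, 1261 and 2151 in testis and 958, 912 and 694 in ovary, which overlap, and the difference of 0.55 ± 0.39 (log2, SE) did not pass (adjusted p = 0.24) and was -0.25 with arrays at a common median. Without testis array 1 it passed (adjusted p = 0.033). Against male body, at 310, 281 and 608, testis was higher by 1.73 ± 0.45 (adjusted p = 0.012). In ovary hsf2 was 0.73 ± 0.30 above female body with an adjusted p of 0.071, and of 0.020 with the fish as a block.

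hsf1, the main stress-activated factor, was dim, and its 2 probe sets did not give the same picture in every comparison. The brighter probe set had 280, 92.8 and 78.1 in testis, 40.7, 34.7 and 30.9 in ovary, 203, 59.0 and 47.4 in male body and 44.1, 50.0 and 74.1 in female body. Testis and male body were both highest on array 1, and samples of like number were taken to be the same fish. Testis was above ovary by 1.83 ± 0.47 (adjusted p = 0.011), but with a floor of 100 or with either other scaling this call was lost (adjusted p = 0.094 with arrays at a common median and 0.54 with quantile normalization). The other probe set was also higher in testis than in ovary in the authors' scaling (1.26, adjusted p = 0.0081). Between testis and male body the brighter probe set did not pass (0.61 ± 0.67, adjusted p = 0.45), while the other was higher in testis by 1.95 (adjusted p = 0.00078). The ovary was lower than female body on the brighter probe set only (-0.62 ± 0.23, adjusted p = 0.048). That call was lost with the fish as a block (adjusted p = 0.054) and on leaving out ovary array 1, 2 or 3 or female body array 2 or 3 (adjusted p up to 0.15). After quantile normalization the difference turned to 0.83 and passed as higher in ovary (adjusted p = 0.011).

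Both measured genes for heat shock factor binding proteins, which restrain these factors, were higher in testis than in ovary, beside 42.5% of all probe sets. With arrays at a common median hsbp1b was not. hsbp1a had 1588, 1196 and 1411 in testis, against 133, 122 and 124 in ovary, 207, 273 and 291 in male body and 121, 182 and 214 in female body. It was higher in testis than in ovary by 3.46 ± 0.17 (adjusted p = 6.0e-06). Its paralog hsbp1b was also higher in testis than in ovary, by 1.16 ± 0.28 (adjusted p = 0.0079). Both genes were higher in testis than in male body as well, by 2.45 and 1.11 on the log2 scale, beside 29.2% of all probe sets.

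**Figure D2:**
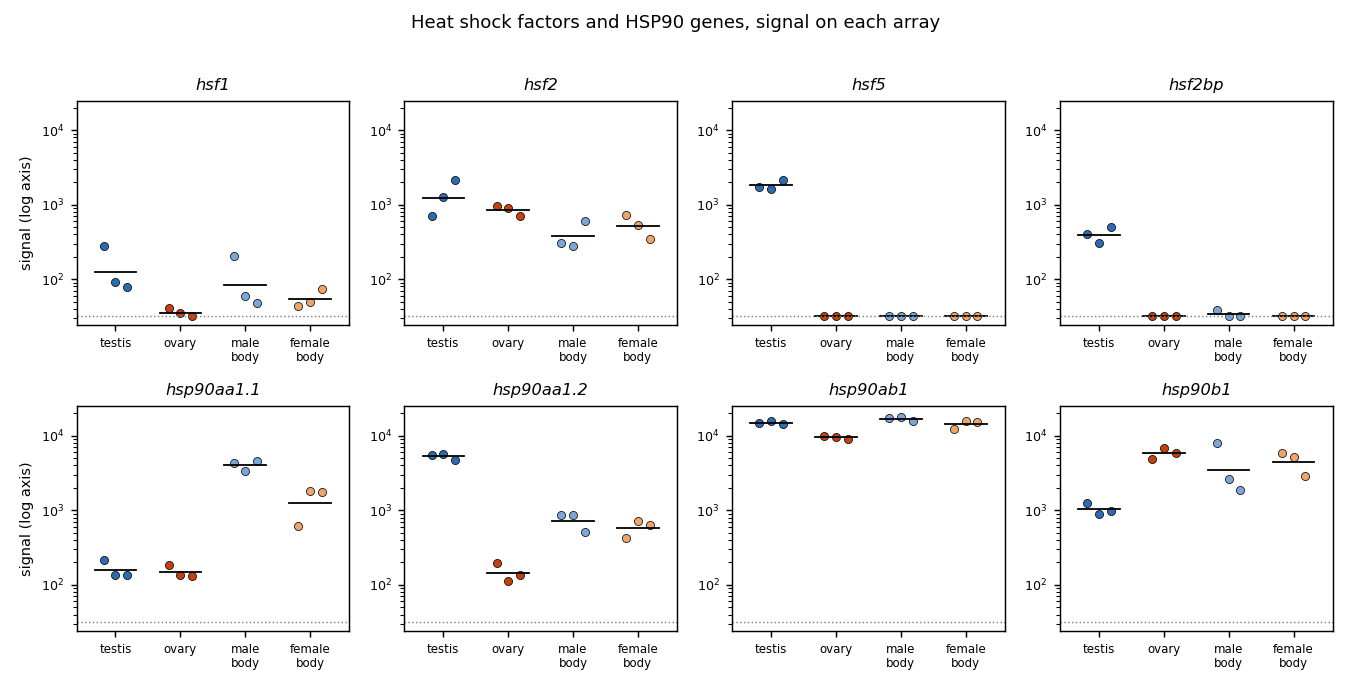
Signal on each array (points, log axis) for hsf1, hsf2, hsf5, hsf2bp and the 4 HSP90 genes in testis, ovary, male body and female body. Lines are at the mean of the log2 signals. The dotted line is the floor of 32, where lower signals are drawn, and hsf5 lies above it in testis only.

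The HSP90 genes did not share a pattern across the groups. hsp90aa1.1, which zebrafish striated muscle needs to fold myosin, had signals of 217, 136 and 137 in testis and 185, 137 and 132 in ovary. In male body it reached 4262, 3327 and 4585, and in female body 620, 1792 and 1750. It was lower in testis than in male body by 25.2-fold (log2 -4.66 ± 0.23, adjusted p = 4.6e-06) and lower in ovary than in female body by 8.35-fold (-3.06 ± 0.43, adjusted p = 0.0011). Testis and ovary did not pass (0.09 ± 0.28, adjusted p = 0.78), with a difference below 0 in both other scalings. The skeletal muscle markers above were also lower in each gonad than in its body, and their part in these differences was not tested.

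The neighbouring paralog hsp90aa1.2 ran the other way in the male. Its signals were 5492, 5696 and 4803 in testis, 199, 113 and 134 in ovary, 858, 860 and 518 in male body and 425, 715 and 640 in female body. Testis lay above every other array. It was 36.9-fold above ovary (log2 5.20 ± 0.22, adjusted p = 3.6e-06) and 7.33-fold above male body (2.87 ± 0.22, adjusted p = 3.0e-05). The ovary was 4.02-fold below female body (adjusted p = 0.0019). The other probe set of the gene gave 41.0-fold for testis over ovary, and was also higher in male body than in female body (log2 1.04, adjusted p = 0.027), where the brighter one did not pass. These 2 genes are close copies, and cross-hybridization between their probe sets was not tested.

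hsp90ab1, the constitutive cytosolic HSP90, was bright everywhere. It had 14919, 15727 and 14370 in testis, against 9922, 9688 and 9010 in ovary, so testis was 1.57-fold higher (log2 0.65 ± 0.08, adjusted p = 0.00037). The size is modest, and with arrays at a common median it became -0.15 (adjusted p = 0.45). In ovary it was lower than in female body by 0.59 ± 0.18 on the log2 scale (adjusted p = 0.024). That call was lost with the fish as a block (adjusted p = 0.063), with either other scaling, and without ovary array 1, 2 or 3 or female body array 2 (adjusted p up to 0.099). The other probe set of hsp90ab1 stayed at the floor on all 12 arrays.

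hsp90b1, the HSP90 of the endoplasmic reticulum, was lowest in testis. Its signals were 1258, 882 and 978 in testis, 4962, 6883 and 5946 in ovary, 8050, 2639 and 1898 in male body and 5822, 5272 and 2855 in female body. Testis was 5.72-fold below ovary (log2 -2.52 ± 0.18, adjusted p = 2.7e-05). It was also below male body (-1.74 ± 0.49, adjusted p = 0.017), where array 1 was far above arrays 2 and 3, and that call was lost without testis array 2 (adjusted p = 0.056) or testis array 3 (adjusted p = 0.054).

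Among 14 measured HSP90 co-chaperones outside the chaperone set, 7 were higher and 2 lower in testis than in ovary, beside 42.5% and 24.4% of all probe sets, and 8 were higher and 1 lower in testis than in male body, beside 29.2% and 29.9%. With arrays at a common median the counts against ovary turned to 2 higher and 5 lower, and those against male body were 7 and 1. unc45b, the myosin chaperone that works with HSP90 in muscle, was the gene that fell (-2.27 ± 0.22 against male body, adjusted p = 9.7e-05), and it had 150, 182 and 142 in testis, against 766, 606 and 928 in male body. chordc1b, an HSP90 partner, rose most, with 2704, 1833 and 2357 in testis, against 535, 457 and 482 in male body and 424, 543 and 374 in ovary. In ovary against female body 4 co-chaperones were higher and 2 lower, beside 28.2% and 29.5% of all probe sets. Between the bodies none of the 14 passed in either direction, beside 18.0% higher and 12.9% lower.

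Within the HSP70 family the housekeeping gene was level and a paralog was not. hspa8, the constitutive cytosolic HSP70, lay between 11967 and 13501 in testis, 9953 and 12132 in ovary, 12369 and 13970 in male body and 10406 and 13566 in female body. No comparison of it passed, with log2 differences between -0.13 and 0.20, but other scalings gave -0.60 for testis against ovary with arrays at a common median (adjusted p = 0.027) and 0.62 for testis against male body with quantile normalization (adjusted p = 0.0016). hspa8b, its paralog, had 3336, 3156 and 3858 in testis, 358, 331 and 253 in ovary, 289, 387 and 365 in male body and 299, 301 and 408 in female body. The 3 testis arrays lay above all others, 11.1-fold above ovary (log2 3.47 ± 0.17, adjusted p = 6.1e-06) and 9.98-fold above male body (3.32 ± 0.17, adjusted p = 4.6e-06). Ovary and female body did not pass for hspa8b (-0.10 ± 0.25, adjusted p = 0.75).

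The inducible HSP70 genes were dim. hsp70.3 had 583, 242 and 185 in testis, against 108, 133 and 137 in ovary, and was higher in testis (1.25 ± 0.43, adjusted p = 0.036). Leaving out testis array 2 or any ovary array lost that call (adjusted p up to 0.098), as did either other scaling. Cross-hybridization of the hsp70.3 probe set with other HSP70 genes was not tested. hspa1b went the other way, with 56.1, 32.3 and 50.0 in testis, 127, 163 and 112 in ovary and 88.1, 233 and 172 in male body. It was lower in testis than in ovary (-1.56 ± 0.27, adjusted p = 0.0017) and than in male body (-1.76 ± 0.39, adjusted p = 0.0063), and with a floor of 100 the call against male body was lost (adjusted p = 0.083).

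hspa14, an HSP70 that sits at the ribosome, was highest in ovary. It had 807, 705 and 897 in testis, 1682, 1350 and 1610 in ovary, 397, 400 and 351 in male body and 993, 593 and 534 in female body. Both gonads were above their bodies, testis by 1.06 ± 0.16 (adjusted p = 0.0010) and ovary by 1.18 ± 0.26 (adjusted p = 0.0069), and testis was below ovary (-0.95 ± 0.15, adjusted p = 0.0011). hspa12a, an atypical member, had 301, 244 and 177 in testis, against 111, 111 and 101 in ovary (1.13 ± 0.25, adjusted p = 0.0058), a call lost with either other scaling (adjusted p = 0.32 in both).

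The HSP110 genes release nucleotide from HSP70. hspa4a had 3098, 1635 and 1780 in testis, against 1281, 914 and 1433 in ovary and 977, 644 and 853 in male body. It was higher in testis than in male body (1.36 ± 0.28, adjusted p = 0.0040) and than in ovary (0.81 ± 0.28, adjusted p = 0.039), the call against ovary being lost without testis array 1 or 3 or ovary array 1 or 2 (adjusted p up to 0.11) and with arrays at a common median. hspa4l was 4.51-fold higher in testis than in ovary, with 339, 221 and 326 against 71.0, 63.9 and 58.9 (adjusted p = 0.00021). hspa4b was higher in testis than in male body (0.56 ± 0.16, adjusted p = 0.017), not without testis array 1 (adjusted p = 0.059) or male body array 3 (adjusted p = 0.055). Its log2 difference from ovary was 0.32, and -0.48 with arrays at a common median (adjusted p = 0.028).

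hspbp1, an exchange factor that binds HSP70, was lowest in male body. Its signals were 934, 865 and 895 in testis, 650, 519 and 836 in ovary, 106, 118 and 120 in male body and 367, 292 and 255 in female body. Testis was 7.85-fold above male body (log2 2.97 ± 0.17, adjusted p = 7.9e-06), and ovary was 2.18-fold above female body (adjusted p = 0.0077). Male body was 2.64-fold below female body (adjusted p = 0.010) on this probe set, but the other probe set did not pass there (-0.56, adjusted p = 0.11) or between ovary and female body (adjusted p = 0.092). Against ovary the other probe set was higher in testis (adjusted p = 0.0038), while the brighter one did not pass (0.45, or -0.35 with arrays at a common median).

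**Figure D3:**
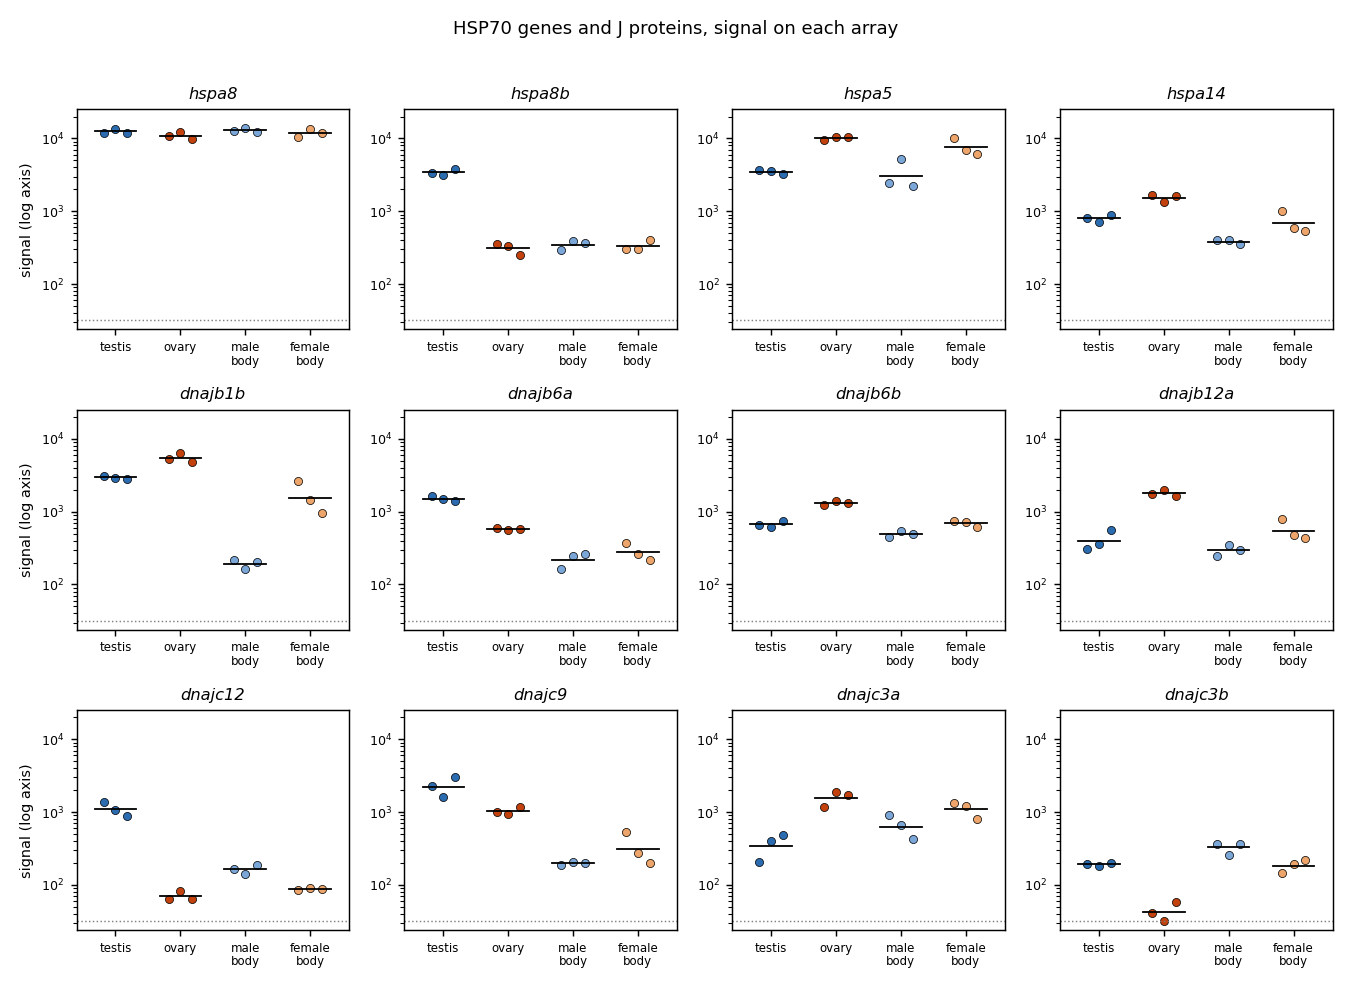
Signal on each array (points, log axis) for 4 HSP70 genes and 8 J protein genes in testis, ovary, male body and female body, with lines at the mean of the log2 signals and a dotted line at the floor of 32. hspa8 is level over the 12 arrays, hspa8b and dnajc12 are highest in testis, and dnajb12a and dnajb6b are highest in ovary.

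The DNAJB genes, the class of J proteins that includes the classical HSP40, were higher in ovary. All 6 were higher in ovary than in female body, with log2 differences between 0.62 and 1.82, beside 28.2% of all probe sets, although dnajb11 lost its call with quantile normalization (adjusted p = 0.062) and without any ovary array or female body array 2 or 3 (adjusted p up to 0.081). The other probe set of dnajb6a did not pass in that comparison (0.71, adjusted p = 0.22). In testis 1 was higher and 4 were lower than in ovary, beside 42.5% and 24.4% of all probe sets. Male body lay below female body for all 6, with log2 differences between -3.01 and -0.32. Of these 2 passed, beside 12.9% of all probe sets lower. In testis 3 were higher than in male body and none was lower, with the other 3 passing in neither direction. All probe sets gave 29.2% and 29.9% there. In each of the other scalings 3 DNAJB genes were higher and 1 was lower.

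dnajb1b, a gene of the classical HSP40, was low in male body. Its signals were 3092, 2922 and 2841 in testis, 5260, 6341 and 4850 in ovary, 216, 163 and 201 in male body and 2612, 1448 and 967 in female body. Male body lay far below the other 3 groups, 15.4-fold under testis (log2 of testis over male body 3.94 ± 0.16, adjusted p = 2.0e-06) and 8.03-fold under female body (adjusted p = 0.0015). Among the female body arrays dnajb1b and the oocyte marker sum were both highest on array 1 and lowest on array 3, and the part in this of what the markers stand for was not tested. Its paralog dnajb1a had 494, 384 and 686 in testis, 480, 612 and 362 in ovary, 77.4, 92.3 and 44.3 in male body and 250, 140 and 139 in female body. Testis was 7.43-fold above male body for dnajb1a (adjusted p = 0.00029) and did not pass against ovary (0.10 ± 0.28, or -0.70 with arrays at a common median).

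The dnajb6 paralogs, which keep aggregation-prone proteins soluble, took opposite sides of the gonads. dnajb6a had 1636, 1492 and 1397 in testis, against 594, 568 and 581 in ovary, higher in testis by 1.37 ± 0.12 (log2, SE, adjusted p = 7.0e-05). dnajb6b had 655, 619 and 735 in testis, against 1234, 1410 and 1314 in ovary, lower in testis by 0.98 on the log2 scale (SE 0.13, adjusted p = 0.00048). For dnajb6a male body stood at 164, 247 and 259, which put testis 6.88-fold higher. The other dnajb6a probe set was likewise higher in testis than in male body, but missed the threshold against ovary (1.09, adjusted p = 0.068), where ovary array 3 gave 935 and the other ovary arrays 354 and 265.

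dnajb12a, a J protein of the endoplasmic reticulum membrane, was 4.51-fold lower in testis than in ovary (adjusted p = 0.00018). It had 309, 361 and 559 in testis, 1747, 2016 and 1625 in ovary, 246, 350 and 293 in male body and 806, 475 and 430 in female body. Ovary stood above every other array, by 3.26-fold over female body (adjusted p = 0.0017).

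Of the 17 DNAJC genes, the most varied class, 7 were higher in testis than in ovary and 5 were lower, which is 41.2% and 29.4%, near the 42.5% and 24.4% of all probe sets. In testis 9 were higher than in male body and 1 was lower, beside 29.2% and 29.9% of all probe sets. In ovary 5 were higher than in female body and 1 was lower, which is 29.4% and 5.88%, beside 28.2% and 29.5%. dnajc12, whose product folds aromatic amino acid hydroxylases in mammals, had 1390, 1072 and 890 in testis, against 63.3, 83.4 and 65.1 in ovary, and was 15.7-fold higher (adjusted p = 1.3e-05). Male body was at 168, 142 and 189, so testis was 6.66-fold higher there (adjusted p = 4.0e-05).

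dnajc9, a J protein that is also a histone chaperone, was high in both gonads. It had 2282, 1628 and 3034 in testis, 1017, 949 and 1160 in ovary, 185, 209 and 202 in male body and 532, 276 and 200 in female body. Testis was 11.3-fold above male body (log2 3.50 ± 0.24, adjusted p = 1.7e-05) and ovary 3.37-fold above female body (adjusted p = 0.0048). Testis was above ovary by 1.11 ± 0.23 (adjusted p = 0.0042), which became 0.31 (adjusted p = 0.29) with arrays at a common median.

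dnajc19, of the mitochondrial import motor, had 1109, 1352 and 1098 in testis, against 284, 265 and 246 in ovary, 4.47-fold higher (adjusted p = 2.8e-05). dnajc17, linked to splicing, was 3.54-fold higher in testis than in ovary, with 259, 390 and 278 against 79.2, 65.1 and 122 (adjusted p = 0.0016). dnajc7, a co-chaperone shared by HSP70 and HSP90, was steady within testis, at 2631 to 2680, against 1265 to 1600 in ovary and 1547 to 1674 in male body. It was higher in testis than in both, by 1.82-fold and 1.63-fold, although its difference from ovary shrank to 0.06 on the log2 scale with arrays at a common median.

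The genes named dnajc5ga and dnajc5gb, of the cysteine string protein family, were highest in ovary. dnajc5ga had 572, 369 and 416 in testis, against 2456, 3744 and 3331 in ovary, which put testis 7.04-fold lower (log2 -2.82 ± 0.23, adjusted p = 4.3e-05). Male body, at 498, 458 and 406, was also below female body, at 1281, 1199 and 1162 (log2 -1.42 ± 0.18, adjusted p = 0.0020). dnajc5gb was 3.20-fold lower in testis than in ovary (adjusted p = 0.0053).

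Among the remaining DNAJC genes dnajc10, dnajc18, dnajc21 and dnajc24 were higher in testis than in male body, by 1.32, 0.75, 0.70 and 0.70 on the log2 scale. dnajc18 lost that call without testis array 1 (adjusted p = 0.091) or male body array 2 (0.056), and dnajc21 without testis array 1 (0.054) or male body array 3 (0.052). For dnajc24, at 46.8, 54.1 and 57.4 in testis, 2 of 3 male body arrays were at the floor, so its 0.70 is a lower limit. dnajc10, a J protein of the endoplasmic reticulum that also reduces disulfide bonds, had 326, 496 and 225 in testis, against 142, 149 and 112 in male body. dnajc30b, a mitochondrial member, had 399, 310 and 322 in ovary, against 147, 108 and 114 in female body, and was higher in ovary by 1.49 ± 0.26 (adjusted p = 0.0030). dnajc4 was near the floor, at 58.4, 39.9 and 62.1 in male body, against 24.4, 33.8 and 23.9 in female body (0.69 ± 0.20, adjusted p = 0.038), and its call was lost in both other scalings.

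Of the 5 class A J proteins none was higher in testis than in ovary and 2 were lower, beside 42.5% and 24.4% of all probe sets. dnaja2a, a cytosolic partner of HSP70, had 3583, 3176 and 3014 in testis, against 5021, 4834 and 4426 in ovary (log2 -0.55 ± 0.11, adjusted p = 0.0032). dnaja2b had 500, 355 and 426 in testis and 1032, 1094 and 1208 in male body, and was lower in testis by 1.39 on the log2 scale (SE 0.18, adjusted p = 0.00037). In ovary its arrays were far apart, at 89.3, 791 and 286, and no comparison with ovary passed. That of ovary with female body had an adjusted p of 0.16, and of 0.013 with the fish as a block (449, 804 and 821 in female body). dnaja3b, a mitochondrial J protein, was dim, at 138, 169 and 159 in testis, against 88.1, 118 and 89.6 in male body, and was higher in testis (0.66 ± 0.22, adjusted p = 0.036), a call that was lost without testis array 2 or 3 or male body array 1 or 3 (adjusted p up to 0.10).

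Several chaperones of the endoplasmic reticulum were lower in testis than in ovary, though not dnajc3b, dnajc10 or fkbp9. hspa5, the HSP70 known as BiP, had 3642, 3520 and 3247 in testis, 9595, 10582 and 10530 in ovary, 2409, 5283 and 2194 in male body and 10231, 6906 and 6096 in female body. Testis was 2.95-fold below ovary (log2 -1.56 ± 0.09, adjusted p = 1.3e-05). dnajb11, a J protein that works with BiP, had 723, 680 and 773 in testis, against 1982, 2107 and 2299 in ovary, and testis was 2.93-fold lower (adjusted p = 3.8e-05). dnajc1, a membrane J protein that recruits BiP, was 3.60-fold lower in testis than in ovary, with 935, 928 and 890 against 3134, 3622 and 3163 (adjusted p = 1.3e-05).

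dnajc3a and dnajc3b, paralogs of the BiP co-chaperone P58IPK, went opposite ways. dnajc3a had 209, 403 and 491 in testis, against 1181, 1918 and 1708 in ovary, and was 4.54-fold lower (adjusted p = 0.0012). dnajc3b had 194, 184 and 200 in testis, against 40.8, 26.7 and 58.4 in ovary, and was 4.54-fold higher (adjusted p = 0.00026). Of its 3 ovary arrays 1 was at the floor. Its log2 difference was 0.84 with quantile normalization (adjusted p = 0.013) and 1.47 with arrays at a common median (adjusted p = 0.0017). For dnajc3b the ovary also lay below female body, at 146, 192 and 221, by 4.33-fold (adjusted p = 0.0015). Between testis and male body dnajc3b was lower by 0.77 on the log2 scale (SE 0.21, adjusted p = 0.016), not without male body array 1 (adjusted p = 0.053) or 3 (adjusted p = 0.060).

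Folding genes of the endoplasmic reticulum outside the chaperone set were measured for 16. Of these 9 were lower in testis than in ovary and 1 was higher, beside 24.4% and 42.5% of all probe sets. Against male body 5 were lower in testis and none was higher, beside 29.9% and 29.2%. These directions held in both other scalings. manf, a secreted protein of the stressed endoplasmic reticulum, fell most, with 516, 325 and 451 in testis, against 2565, 3705 and 2765 in ovary (log2 -2.81 ± 0.22, adjusted p = 4.1e-05). The exchange factor hyou1 followed at -2.36 ± 0.18 (adjusted p = 3.8e-05). The exception was the collagen chaperone serpinh1b, at 77.7, 54.8 and 73.3 in testis and under the floor on all 3 ovary arrays. In ovary 5 of the 15 tested were higher than in female body and 3 were lower, beside 28.2% and 29.5% of all probe sets. With arrays at a common median 9 were higher and none was lower. Liver markers summed to 5038 to 12977 in testis, 250 to 395 in ovary, 119591 to 158919 in male bodies and 97743 to 106283 in female bodies, and their part in these differences was not tested.

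In the mitochondria the partners HSP60 and HSP10 did not move together. hspd1, HSP60, had 2649, 1416 and 3061 in testis, against 5885, 6120 and 5023 in ovary, and was lower in testis by 1.33 on the log2 scale (SE 0.28, adjusted p = 0.0047). hspe1, HSP10, had 3291, 2728 and 4083 in testis, against 3134, 4239 and 3053 in ovary, which overlap (-0.05 ± 0.19, adjusted p = 0.83). For hspd1 the ovary was 0.62 ± 0.17 above female body, at 4209, 3536 and 3360 (adjusted p = 0.017), which was lost without ovary array 1 or 2 or female body array 2 (adjusted p up to 0.073). No comparison of hspe1 passed, whereas with arrays at a common median testis was below ovary (-0.85, adjusted p = 0.023) and ovary above female body (1.15, adjusted p = 0.0042).

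hspa9, the mitochondrial HSP70, was lower in testis than in ovary on both probe sets, by 0.51 and 1.32 on the log2 scale. The dimmer one was also higher in ovary than in female body (0.77, adjusted p = 0.0054) and lower in male body than in female body (-0.54, adjusted p = 0.045), where the brighter one did not pass. On the brighter one the call was lost without testis array 1 or 2 or any ovary array (adjusted p up to 0.11). dnaja3a, its J protein partner, had 478, 420 and 468 in testis, against 734, 753 and 1518 in ovary (-1.05 ± 0.29, adjusted p = 0.015). Without testis array 2 the adjusted p was 0.062, and without testis array 3 it was 0.050.

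The cytosolic chaperonin CCT, a ring of 8 different subunits, was higher in testis. All 8 subunit genes were higher in testis than in ovary, by 0.50 to 1.28 on the log2 scale (median 0.96), beside 42.5% of all probe sets. With arrays at a common median cct3 and tcp1 turned below 0. For each of the 8 the testis arrays all lay above the ovary arrays, as they did for 45.2% of all probe sets tested. cct2 had 3635, 3431 and 2683 in testis, 1383, 1223 and 1384 in ovary, 2286, 2083 and 1866 in male body and 1746, 2024 and 2256 in female body. It was higher in testis than in ovary by 1.28 ± 0.14 (adjusted p = 0.00022). The other probe set of cct2 was dim, at 58.3, 99.6 and 70.3 in testis and 56.4, 89.2 and 55.9 in ovary, and passed neither against ovary (0.18, adjusted p = 0.59) nor against male body (-0.34, adjusted p = 0.36). cct8 had 5138, 4212 and 5231 in testis, against 2161, 1968 and 1927 in ovary (1.26 ± 0.12, adjusted p = 9.7e-05), and cct7 had 4972, 5151 and 6112 in testis, against 2768, 2241 and 2543 in ovary (2.15-fold, adjusted p = 0.00024). cct3 differed least, with 3229, 3330 and 3453 in testis, against 2277, 2312 and 2490 in ovary (0.50 ± 0.09, adjusted p = 0.0027).

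Against male body 7 of the 8 subunits were higher in testis, by 0.40 to 0.92 on the log2 scale, beside 29.2% of all probe sets. The other, cct4, did not pass (0.28 ± 0.15, adjusted p = 0.14). 3 of these 7 were lost on leaving out single arrays: cct6a without testis array 3 (adjusted p = 0.062), cct8 without testis array 1 or 3 or male body array 3 (up to 0.063) and tcp1 without testis array 1 or 3 or male body array 1 or 3 (up to 0.089). No subunit passed between male body and female body, where the log2 differences ran between -0.13 and 0.20. All probe sets gave 18.0% higher in male body and 12.9% lower. In ovary against female body cct2, cct4 and cct8 were lower, by 0.59, 0.61 and 0.80 on the log2 scale. That is 37.5% of the subunits, beside 29.5% of all probe sets. cct2 and cct4 lost their calls without ovary array 1, 2 or 3 or female body array 2 (adjusted p up to 0.067 and 0.080). The cct4 call was also lost without female body array 3.

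With quantile normalization all 8 subunits were still higher in testis than in ovary (median 1.42), whereas with arrays at a common median 2 passed, 6 were above 0 and the median was 0.16, and tcp1 and cct3 were then -0.11 and -0.30. In ovary against female body the CCT median of -0.36 became 0.34 with arrays at a common median. Against male body 8 subunits passed with quantile normalization and 5 with arrays at a common median, all of them higher in testis.

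Prefoldin and the tubulin cofactors deliver or finish CCT clients. Of 10 measured genes for them, 6 were higher in testis than in male body and none was lower, beside 29.2% and 29.9% of all probe sets. Against ovary 4 were higher in testis and 3 were lower, near the 42.5% and 24.4% of all probe sets, or none and 5 with arrays at a common median. tbcb, a tubulin folding cofactor, rose most against ovary, with 2172, 1723 and 2592 in testis and 1015, 968 and 927 in ovary, and tbcc fell most, with 693, 479 and 650 in testis and 1881, 2130 and 1821 in ovary.

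**Figure D4:**
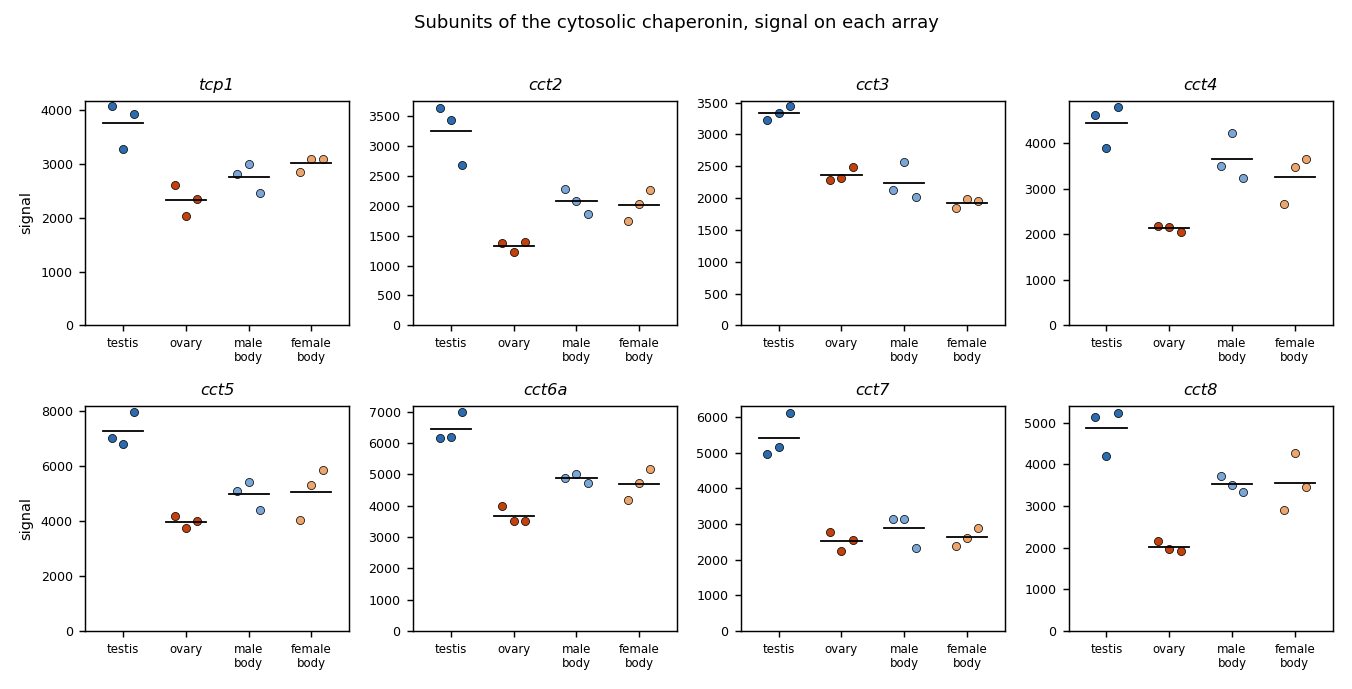
Signal on each array (points, linear axis from 0) for the 8 subunit genes of the cytosolic chaperonin in testis, ovary, male body and female body, with lines at the mean. In every panel the 3 testis arrays lie above the 3 ovary arrays (for cct3 and tcp1 the mean difference turns below 0 with arrays at a common median), and male body and female body overlap for all but cct3.

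Small heat shock proteins were genes of the body, with an exception in testis. hspb1, HSP27, had 349, 674 and 552 in testis, 172, 144 and 213 in ovary, 2599, 2988 and 3203 in male body and 565, 1741 and 1223 in female body. It was lower in testis than in male body by 5.76-fold (adjusted p = 1.0e-04) and lower in ovary than in female body by 6.12-fold (adjusted p = 0.0019). hspb6, HSP20 of muscle, was lower by 21.3-fold in testis (124, 65.2 and 143, against 1075, 2429 and 4316 in male body, adjusted p = 0.00026). In ovary it had 21.7, 16.3 and 40.3, against 940, 1447 and 1923 in female body, with 2 of 3 ovary arrays at the floor.

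hspb8, a small heat shock protein that works in selective autophagy, was bright in testis too. It had 1375, 2058 and 2927 in testis, 1498, 1431 and 1402 in male body and 374, 308 and 843 in female body, and lay under the floor on all 3 ovary arrays. Testis was at least 63.2-fold higher than ovary (adjusted p = 5.9e-06), testis and male body did not pass (0.49 ± 0.26, adjusted p = 0.14), and ovary was at least 14.4-fold lower than female body (adjusted p = 0.00031). All 3 small heat shock genes were higher in testis than in ovary, beside 42.5% of all probe sets. hspb1 was higher by 1.54 and hspb6 by 1.60 on the log2 scale, although hspb6 did not pass after quantile normalization (adjusted p = 0.26).

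Between the bodies hspb1 was 2.75-fold and hspb8 3.14-fold higher in the male (adjusted p = 0.027 and 0.016). hspb1 lost that call without any one of the male body arrays (adjusted p up to 0.085), and hspb8 without male body array 1 (0.054) or 3 (0.053). The alpha crystallins of the lens, which share their fold, followed the body pattern, and cryaa had 1205, 971 and 1143 in male body, against 325, 510 and 780 in female body. On all 9 measured brain and nerve markers together male body gave 12501 to 15550 and female body 4117 to 7546, and on the 4 heart markers 9116 to 12982 and 666 to 3772. The part of these tissues in the differences between the bodies was not tested.

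Of the 10 FKBP isomerase genes 5 were higher in testis than in ovary and 4 were lower, beside 42.5% and 24.4% of all probe sets, and 4 were higher and 4 lower in ovary than in female body, beside 28.2% and 29.5%. fkbp1b, which steadies ryanodine receptor calcium channels, had 590, 494 and 761 in testis, 1943, 1107 and 1943 in male body and 267, 530 and 1091 in female body, and was under the floor on all 3 ovary arrays. Testis was at least 18.9-fold higher than ovary (adjusted p = 8.8e-06) and 2.66-fold lower than male body (adjusted p = 0.0029). fkbp3, a nuclear isomerase, was highest in testis, with 2865, 3131 and 3520, against 424, 412 and 584 in ovary, 1438, 1905 and 1314 in male body and 733, 1315 and 1424 in female body. It was 6.77-fold higher in testis than in ovary (adjusted p = 1.7e-05).

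fkbp5, an HSP90 co-chaperone that glucocorticoids induce, varied widely within testis. Its signals were 1615, 6463 and 4019 in testis, 659, 304 and 808 in ovary, 7144, 11835 and 11090 in male body and 5173, 5972 and 7313 in female body. Even so testis was 6.38-fold above ovary (log2 2.67 ± 0.56, adjusted p = 0.0046), and ovary was 11.2-fold below female body (adjusted p = 0.00028). The lower level in testis than in male body (-1.49 ± 0.47, adjusted p = 0.028) was lost without testis array 3 or male body array 2 or 3 (adjusted p up to 0.090) and with quantile normalization (adjusted p = 0.18). Its relative fkbp4 passed in no comparison, and passed for ovary over female body with arrays at a common median (0.59, adjusted p = 0.017).

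The FKBP proteins of the endoplasmic reticulum did not share a direction. fkbp10b, which acts on collagen, had 127, 151 and 181 in testis, against 622, 506 and 692 in ovary, 3.98-fold lower in testis (adjusted p = 0.00019). fkbp2 was 1.64-fold lower (adjusted p = 0.0075). fkbp14 was lower too, with 176, 152 and 149 in testis, against 311, 570 and 207 in ovary. Its call was lost without any one testis array or ovary array 1 or 2 (adjusted p up to 0.11). fkbp9 was the reverse, with 268, 179 and 227 in testis, against 25.4, 13.4 and 39.6 in ovary, 6.45-fold higher in testis (adjusted p = 5.2e-05) with 2 of 3 ovary arrays at the floor. fkbpl, an FKBP-like protein that binds HSP90, had 114, 111 and 122 in testis, against 300, 352 and 311 in ovary (2.77-fold lower, adjusted p = 0.00040), and 13.6, 42.4 and 36.3 in male body. fkbp1aa, a small cytosolic isomerase, had 3948, 4116 and 4441 in testis, against 2309, 2630 and 2253 in ovary (0.80 ± 0.11, adjusted p = 0.00049), a difference that vanished with arrays at a common median (adjusted p = 0.99). Its other probe set was lower in testis than in male body (-0.35, adjusted p = 0.024), where the brighter one did not pass.

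**Figure D5:**
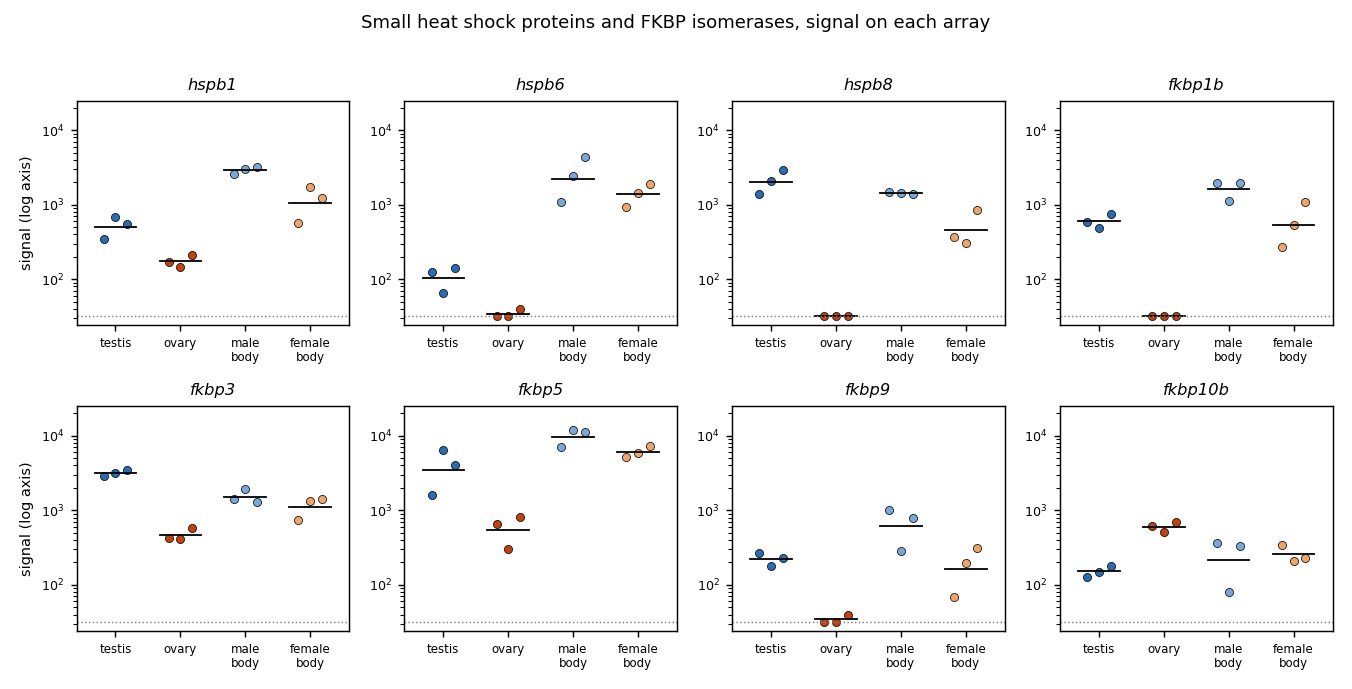
Signal on each array (points, log axis) for the 3 small heat shock genes and 5 FKBP genes in testis, ovary, male body and female body, with lines at the mean of the log2 signals and a dotted line at the floor of 32. hspb8 and fkbp1b lie at the floor in ovary only, and fkbp10b runs opposite to fkbp9 between testis and ovary.

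The other proline isomerases, the cyclophilins, were more often higher than lower in the gonads against the bodies. Of 12 measured, 7 were higher in testis than in male body and 1 was lower, beside 29.2% and 29.9% of all probe sets. In ovary 7 were higher than in female body and 2 lower, beside 28.2% and 29.5%, or 5 and 2 with quantile normalization. ppid, a cyclophilin that binds HSP90, rose most in testis over male body, with 2554, 3993 and 2633 against 399, 401 and 441 (log2 2.86 ± 0.20, adjusted p = 1.9e-05), and had 697, 686 and 737 in ovary. Over all 69 measured folding genes outside the chaperone set, 28 were higher in testis than in male body and 11 were lower. All probe sets gave 29.2% and 29.9% there. Against ovary 25 of the 68 tested were higher in testis and 16 were lower, beside 42.5% and 24.4% of all probe sets, but 8 and 34 with arrays at a common median.

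The patterns across all 4 groups at once are given in the authors' scaling only. There 20 of the 71 chaperone genes had their 3 testis arrays above the other 9 arrays, which is 28.2%, beside 14.4% of all probe sets. Those 20 include hsf5, hsf2bp, hsp90aa1.2, hspa8b, hspbp1, dnajb6a, dnajc9, dnajc12, fkbp3 and 6 CCT subunits. Of these subunits cct3 and tcp1 were below ovary on average with arrays at a common median. Ovary was highest for 15 genes, 21.1% beside 18.0%, among them hspd1, hspa14, dnajb11, dnajb12a, dnajb1b, dnajb6b, dnajc1 and dnajc5ga. Testis was lowest for 3 genes, hsp90b1, hspa1b and dnajb11, 4.23% beside 4.94%. Ovary was lowest for 18 genes, 25.4% beside 23.8%. Male body was highest for 7 genes (9.86% beside 17.9%) and lowest for 8 (11.3% beside 13.5%). Female body was highest for none and lowest for cct3 alone, where all probe sets gave 0.279% and 1.06%.

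Whether the gonad and body difference itself differed between the sexes was tested on all 12 arrays. For 25 genes testis minus male body exceeded ovary minus female body, and for 7 it was smaller, 35.2% and 9.86% of the 71, beside 23.1% and 12.6% of all probe sets. 7 of the 8 CCT subunits were among the 25 and none among the 7. With arrays at a common median the counts were 12 and 25 and no CCT subunit passed, and with quantile normalization they were 27 and 11 with all 8 CCT subunits among the 27. The all-gene medians were 0.07, -0.39 with arrays at a common median and -0.16 with quantile normalization.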

How the data were processed

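RNA of 3 testes, 3 ovaries, 3 male bodies and 3 female bodies was hybridised to 1-colour Affymetrix Zebrafish Genome Arrays, 1 array for each sample. The deposited values are linear intensity signals that the authors made with GCOS 1.2, as the Tukey biweight mean of perfect match minus mismatch across each probe set's pairs. The authors had scaled each array, and the mean after trimming 2% at each end was 500.1 to 500.2 on all 12 arrays. They also used other algorithms, whose values were not used here. Detection calls were not used here either. Because each array was set to one trimmed mean, a change in the overall distribution of signals between tissues moves all genes, which is why other scalings were tried.

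Of 15617 probe sets, 115 controls were left out. Platform annotation gave 1 symbol to 10795 of the rest, several to 135 and none to 4572. 3 chaperone probe sets with several symbols were not counted, and all 71 chaperone symbols were current in RefSeq. Where a gene had several probe sets, the one brightest on average (log2) over the 12 arrays stood for it.

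Signals were floored at 32 and taken to log2. limma 3.58.1 (lmFit, eBayes with an intensity trend, R 4.3.3) was fitted to the 6 arrays of each pair of groups over all probe sets above the floor on at least 1 of them, with Benjamini-Hochberg adjustment over all of these and a two-sided threshold of 0.05. The difference between the sexes was an interaction term on all 12 arrays. Where every array of a group was at the floor, a fold is the other group's mean of log2 signals over the floor. Other steps used Python 3.11.15, pandas 2.3.3 and NumPy 2.4.6. The fitting code was also run on simulated data in which 200 probe sets had known changes, with independent arrays and without the floor. That run could not test the floor, the scaling or the pairing of samples.

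The labels give each sample a replicate number but do not say which samples came from the same fish. Deviations from the group means were correlated over 8371 probe sets. Testis and male body of the same number gave 0.30, 0.31 and 0.28, and ovary and female body gave 0.24, 0.30 and 0.34. On these values the numbers were taken to pair these samples. All pairs of unlike number were below 0, but deviations from a group mean sum to 0, so this adds no separate support. The fish as a block was an alternative.

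Genes named with values are all those with hsf symbols and all HSP90, HSP110 and mitochondrial chaperonin genes. The gene of largest difference in each direction per family and comparison was also named, among those that passed without overlap of the groups. So were paralogs that passed in opposite directions. Others were named after their values were seen. The members, the lists of other folding genes and the marker lists were chosen with earlier results of these data known. Alternatives were the floor, the scaling, a filter on dim probe sets, array weights, the intensity trend, a fit of all arrays, the methods' t-test, every probe set counted on its own, the replicate block and each array left out. P-values measure the spread between fish, and 3 arrays a group limit the precision.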

Additional observations from a re-analysis of the deposited data

Results flagged for a closer look

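For 22 of the named genes the difference between gonad and body was itself different in males and females by the interaction test (limma, adjusted p under 0.05), and values here are log2 of testis minus male body, less ovary minus female body. With 3 arrays a group, single arrays were not screened for outliers.

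The difference was larger in males for hsf5 (5.83) and hsf2bp (3.55), both at the floor on all ovary and female body arrays, so that these values are those of testis minus male body alone. They are not lower limits of the difference between the sexes, because ovary minus female body is not known under the floor. The difference was also larger for hspb8 (at least 4.33, with all ovary arrays at the floor), and for hsp90aa1.2 (4.88), hspa8b (3.42) and hspbp1 (1.85) among the HSP90 and HSP70 genes and their cofactors. Among the J proteins it was larger for dnajc12 (3.07), dnajb1b (2.12), dnajc9 (1.75), dnajb6a (1.73), dnajc3b (1.34) and dnajc19 (1.02), and dnajc3b was -0.20 with quantile normalization. The chaperonin subunits cct8 (1.26), cct2 (1.23) and cct7 (0.98) and the isomerases fkbp1b (at least 2.65, with all ovary arrays at the floor) and fkbp5 (1.99) were also larger in males. The other probe sets of cct2 (-0.08, adjusted p = 0.90) and dnajb6a (0.97, adjusted p = 0.18) did not pass. With arrays at a common median dnajc19, dnajc3b, dnajc9, cct2, cct7, cct8 and fkbp5 no longer passed.

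The difference was smaller in males for hsp90b1 (-2.14), hspa1b (-1.62), hsp90aa1.1 (-1.60), dnajc5ga (-1.39) and dnajb12a (-1.27). The calls of hsp90aa1.1, hspa1b, dnajb12a, dnajc19 and fkbp5 were lost on leaving out single arrays. The part of the oocyte marker signals on the female body arrays in these differences was not tested.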

How the results depend on the processing

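The counts of chaperone genes moved with scaling. With arrays at a common median, 19 genes were higher in testis than in ovary, 38 were higher and 9 lower in ovary than in female body, and 12 and 25 differed between the sexes in the gonad and body difference, with 11 lower there under quantile normalization. Array weights gave 16 higher and 14 lower in male body than in female body, and 32 and 26 in ovary against female body. The methods' t-test was run on the GCOS signals alone, whereas the study required a gene to pass with every expression algorithm it used. After adjustment this t-test gave 0 and 1 between the bodies, against 12 and 7 at an unadjusted p under 0.05, and 6 lower in testis than in male body and 10 lower in ovary than in female body. Testis and ovary had 30 higher and 18 lower by that test. The cause of these shifts was not tested.

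With single arrays left out, 33 to 35 genes were higher and 18 to 20 lower in testis than in ovary, 26 to 32 and 7 to 11 in testis than in male body, 15 to 20 and 11 to 21 in ovary than in female body, 0 to 10 and 3 to 10 in male body than in female body, and 22 to 25 and 4 to 8 in the difference between the sexes, where 4 came without testis array 2. Of 55 calls between testis and ovary 49 held whichever array was left out and 38 held in both other scalings. The same counts were 30 and 34 of 42 for testis and male body, 26 and 25 of 36 for ovary and female body, 3 and 13 of 17 for the bodies, and 26 and 19 of 32 for the difference between the sexes.

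Some log2 differences turned sign. With arrays at a common median hsp90ab1 was -0.15 and hspa4b -0.48 in testis against ovary, and in ovary against female body cct7 was 0.63, cct2 0.11, hsp90ab1 0.11, hsf1 0.065 and hspa4l 0.027. With quantile normalization hsp90ab1 was 0.56 in testis against male body, hsf1 0.83, dnajc12 0.81 and hspa4l 0.52 in ovary against female body, and dnajc3b -0.20 in the difference between the sexes. With arrays at a common median hspa4b (limma adjusted p = 0.028) and cct7 (0.011) passed in the turned direction. With quantile normalization so did hsp90ab1 (0.0028), hsf1 (0.011) and dnajc12 (0.024), and for hsf1 a lower call became a higher one. The cause of these sign changes was not tested either.

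With the replicate block, 34 genes were higher and 21 lower in testis than in ovary, 33 and 12 in testis than in male body, 20 and 15 in ovary than in female body, 8 and 8 in male body than in female body, and 28 and 9 in the difference between the sexes. The block lost the calls of hspd1, dnajc12 and dnajc4 between the bodies (adjusted p = 0.053, 0.063 and 0.058), hsf1, hsp90ab1 and hspa4l between ovary and female body (0.054, 0.063 and 0.080) and dnajb1a between the sexes (0.059). Samples of like number in different fish share only a number, with correlations of deviations of 0.02, -0.13 and -0.04 for testis and ovary and 0.04, 0.07 and 0.12 for the bodies. Probe sets near the floor, such as hsf1 and dnajc4, give the least certain values.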
